A study of Mus musculus with 12 samples.

Results

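Interferon-stimulated genes are genes whose transcription rises when a cell senses interferon. A list of 37 of them, chosen by name for their place in the type I interferon response, was followed in conventional dendritic cells sorted from mouse spleen. Values came from probe sets that carry a single gene symbol, the brightest one where a gene had several. Of the 37 genes, 34 had such a probe set, 1 each, among 19938 genes with a value. Isg15 and Gbp2 lay on probe sets that also carry other symbols, and Ifi44 had no named probe set, so these genes are given no value. All 34 remained among the 14953 genes tested once the dimmest genes on the arrays were left out.

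The study compared Flt3L KO mice, which lack the growth factor Flt3 ligand, and Flt3 KO mice, which lack its receptor, with WT mice. Both branches of conventional dendritic cells, cDC1 and cDC2, were sorted in their mature form at steady state, with no treatment that induces interferon. Total RNA was measured on 12 arrays, 2 biological replicates for each of 6 groups: Flt3L KO cDC1, Flt3 KO cDC1, WT cDC1, Flt3L KO cDC2, Flt3 KO cDC2 and WT cDC2. The alleles, strain and age of the mice, the sort gates and the number of mice per array were not stated in the sources. The p-values thus reflect array-to-array spread, which may in part be technical. Intensities are linear array units and are given for replicate 1 and then replicate 2 of each group. Differences are on the log2 scale with the standard error (SE) from limma, and a gene was called where its Benjamini-Hochberg adjusted p over all genes tested was under 0.05. Brightness was not used to say that 1 gene is expressed more than another, since probe sets differ in how strongly they bind. It served to leave out dim genes, to flag values near or below an array's lower quartile and to sum markers, where bright probe sets weigh most.

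Type I interferons bind a receptor built of Ifnar1 and Ifnar2, and the kinases Jak1 and Tyk2 then activate Stat2. Together with Irf9 it enters a complex that binds an element repeating the letters GAAA in the promoters of its targets. The targets include sensors of viral nucleic acid, enzymes that degrade viral RNA or deplete its building blocks, proteins that trap virus at a membrane, and brakes on the pathway. Dendritic cells keep some of these genes on without infection, through a low tonic interferon signal, and Flt3 ligand acts through a separate receptor that supports their development.

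The labels held against the cells' own markers. The summed intensity of 8 cDC1 genes was 12610 to 14410 on the cDC1 arrays and 1297 to 1701 on the cDC2 arrays, and that of 7 cDC2 genes was 532.6 to 708 and 6757 to 8230 on the same arrays. Flt3 was 6.32-fold lower in Flt3 KO cDC1 and 4.93-fold lower in Flt3 KO cDC2 than in WT. The Flt3L KO label was not checked this way, since no source used here gives the deleted part of the ligand gene. The median intensity of an array was 59.0 to 63.0. Replicate 1 of WT cDC1 stood apart, with a lower quartile of 25.7, against 23.3 to 24.3 on the other arrays.

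Replicate 1 of Flt3L KO stood apart on the list itself. In Flt3L KO cDC2, replicate 1 was above replicate 2 for 34 of 34 members, with a median log2 difference of 0.32, while 51.1% of all genes tested were above and their median was 0.00. In Flt3L KO cDC1 replicate 1 was above for 28 of 34, with a median of 0.23. Replicate 1 was above for 23 of 34 members in Flt3 KO cDC2, 24 in WT cDC2, 17 in Flt3 KO cDC1 and 15 in WT cDC1, with medians of 0.05, 0.06, -0.01 and -0.02. The geometric mean intensity of the 34 members was 304.2 and 238.1 in Flt3L KO cDC2, 210.8 and 208.8 in Flt3 KO cDC2 and 240.8 and 227.3 in WT cDC2. It was 161.1 and 139.1 in Flt3L KO cDC1, 131.4 and 134.8 in Flt3 KO cDC1 and 133.2 and 134.2 in WT cDC1. Replicate 1 of Flt3L KO therefore lay above the other arrays of its cell type, and the counts of called members in Flt3L KO comparisons are given with and without it, as are other genes called in Flt3L KO against WT.

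**Figure D1:**
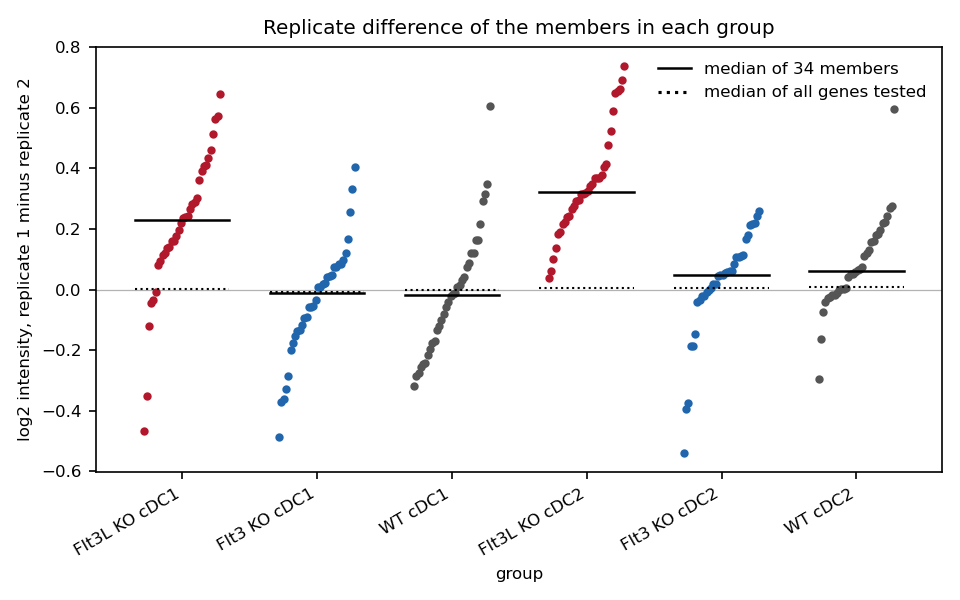
Log2 intensity of replicate 1 minus replicate 2 for each of the 34 interferon-stimulated genes (points, sorted within a group), in the 6 groups along the horizontal axis. Solid lines are medians of the 34 genes and dotted lines medians of all genes tested. In Flt3L KO cDC2 all 34 points lie above 0 with a median of 0.32, and in Flt3L KO cDC1 28 of 34 do, while the dotted lines stay at 0.01 or closer to 0.

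Promoters of some genes that differed strongly between the WT cell types are shown because they carry, or lack, the element through which the interferon complex acts. Copies of GAAA set 2 bases apart (GAAA, any 2 bases, GAAA) were searched on both strands in RefSeq windows of GRCm38.p6 running from 250 bases before to 50 bases after a start site. Rtp4, Oas2, Ifi27l2a and Mx1, also among the largest WT differences, had no such window. This repeat was found in 15 of the 27 listed genes with a window (55.6%), against 1079 of 27025 genes in the table (3.99%). The STAT dimer motif TTCNNNGAA, which reads the same on both strands, was in 8 of the 27 (29.6%), against 2582 genes (9.55%), and it overlapped the repeat in Bst2 and Ifitm3. A match describes letters in this window and not binding. Below are the 250 bases before the start for the genes of largest difference that had a window, first those lower in cDC1 (Ifit1, Oasl2, Rsad2, Ifit3) and then those higher (Trim30a, Oasl1, Bst2), each 5′ to 3′ on the gene's strand, with matches to the GAAA repeat or its reverse complement in capitals.
Ifit1: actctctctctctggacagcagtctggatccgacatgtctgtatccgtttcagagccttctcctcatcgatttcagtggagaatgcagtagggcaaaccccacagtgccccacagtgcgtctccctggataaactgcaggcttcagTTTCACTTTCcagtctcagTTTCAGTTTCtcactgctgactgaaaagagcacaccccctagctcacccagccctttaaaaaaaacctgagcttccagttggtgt
Oasl2: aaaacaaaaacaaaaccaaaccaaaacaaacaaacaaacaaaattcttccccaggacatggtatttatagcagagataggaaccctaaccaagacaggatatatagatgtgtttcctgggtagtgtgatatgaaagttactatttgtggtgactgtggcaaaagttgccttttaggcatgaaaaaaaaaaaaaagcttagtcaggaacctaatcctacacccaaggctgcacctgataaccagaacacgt
Rsad2: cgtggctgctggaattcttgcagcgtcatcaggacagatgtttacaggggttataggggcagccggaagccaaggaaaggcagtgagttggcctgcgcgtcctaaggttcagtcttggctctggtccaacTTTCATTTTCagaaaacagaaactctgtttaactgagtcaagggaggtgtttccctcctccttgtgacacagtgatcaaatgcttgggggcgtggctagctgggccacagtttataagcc
Ifit3: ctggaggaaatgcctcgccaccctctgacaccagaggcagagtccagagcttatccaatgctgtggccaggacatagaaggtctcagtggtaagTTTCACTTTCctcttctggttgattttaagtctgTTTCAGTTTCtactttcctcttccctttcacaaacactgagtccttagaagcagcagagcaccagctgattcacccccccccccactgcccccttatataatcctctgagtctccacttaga
Trim30a: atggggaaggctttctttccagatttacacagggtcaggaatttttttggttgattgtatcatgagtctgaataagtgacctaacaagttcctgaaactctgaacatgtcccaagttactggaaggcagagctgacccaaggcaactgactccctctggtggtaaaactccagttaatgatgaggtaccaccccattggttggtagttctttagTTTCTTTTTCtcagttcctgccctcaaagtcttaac
Oasl1: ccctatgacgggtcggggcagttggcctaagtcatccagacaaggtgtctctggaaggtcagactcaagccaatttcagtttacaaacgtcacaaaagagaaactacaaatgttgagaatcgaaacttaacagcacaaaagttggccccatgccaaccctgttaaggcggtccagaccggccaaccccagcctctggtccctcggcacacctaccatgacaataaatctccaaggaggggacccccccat
Bst2: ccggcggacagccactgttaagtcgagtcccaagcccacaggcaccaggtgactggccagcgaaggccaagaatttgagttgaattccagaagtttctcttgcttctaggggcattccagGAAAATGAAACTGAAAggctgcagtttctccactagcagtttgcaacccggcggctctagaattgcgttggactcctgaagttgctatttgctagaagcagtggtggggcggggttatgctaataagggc

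These windows lie at chr19:34640639-34640888 (plus strand) for Ifit1, chr5:114896684-114896933 (plus strand) for Oasl2, chr12:26456453-26456702 (minus strand) for Rsad2, chr19:34583279-34583528 (plus strand) for Ifit3, chr7:104465194-104465443 (minus strand) for Trim30a (its most upstream start in the table), chr5:114922990-114923239 (plus strand) for Oasl1 and chr8:71537473-71537722 (minus strand) for Bst2. Ifit1 holds 2 matches, beginning 104 and 85 bases before the start, and Ifit3 holds 2, at 156 and 122 bases. Rsad2 holds 1 at 120 bases and Trim30a holds 1 at 36 bases. Bst2 holds 2 that overlap, at 130 and 124 bases. Neither Oasl2 nor Oasl1 holds the repeat in these bases, although both differed between the cell types, in opposite directions. So genes with a match stood on both sides of the cell-type comparison.

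Between the cell types, most of the list was lower in cDC1. In WT, 22 of 34 members were lower in cDC1 and 4 were higher, while 18.4% of all genes tested were called lower and 21% higher. The median log2 difference of the members was -0.70, against 0.07 for all genes tested. The list was chosen with earlier results known, and a wider set of interferon-stimulated genes, given below, differed in both directions. Rtp4, Oas2, Ifit1 and Ifi27l2a were lowest relative to cDC2, and Mx1, Trim30a, Oasl1 and Bst2 went the other way. From whole populations, fewer cells that express a gene and less of its RNA per cell cannot be told apart. Lists of other cell types also differed between these arrays: 7 of 7 red pulp macrophage markers had a value, and their summed intensity was 506.4 to 585.5 on the cDC1 arrays and 1548 to 2712 on the cDC2 arrays, while 5 of 6 monocyte markers summed to 785.3 to 1066 and 2189 to 2891. Single bright genes made most of these gaps in WT. Adgre1 was at 41.7 and 41.3 in WT cDC1, against 996 and 943 in WT cDC2, and Csf1r at 109 and 97.9, against 1217 and 1180. C1qa, C1qb, C1qc and Spic were also higher in WT cDC2. Vcam1 and Cd5l were lower there, and Ccr2 was not called (0.21 ± 0.18, SE). The sums thus do not measure how many such cells were present, and the part of these lists in the result was not tested.

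**Figure D2:**
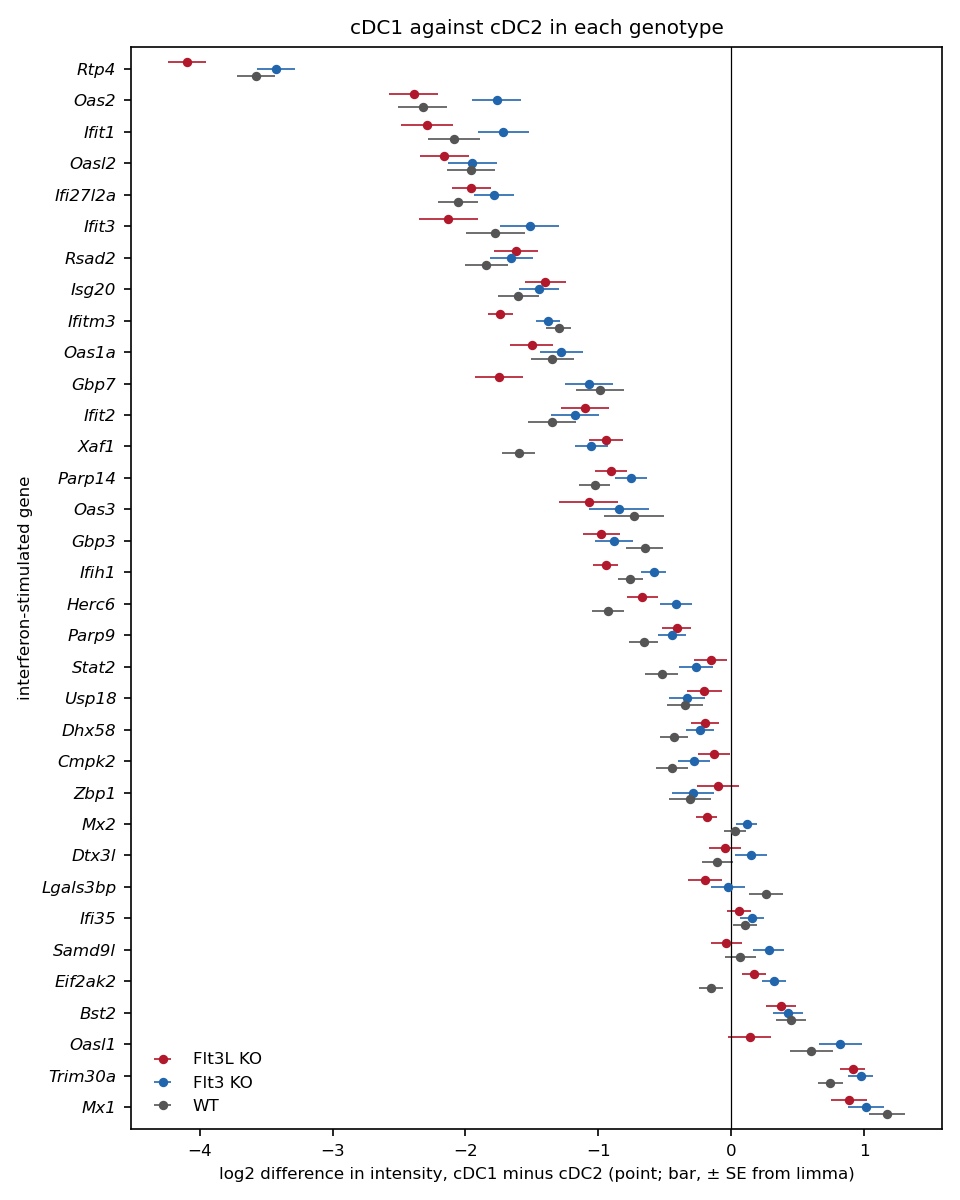
Log2 difference in intensity, cDC1 minus cDC2, for the 34 interferon-stimulated genes (rows, ordered by the mean over genotypes) in Flt3L KO, Flt3 KO and WT. Points are the fitted differences and bars ± SE from limma. Rtp4 lies at -4.10, -3.42 and -3.57, and Mx1 at 0.88, 1.01 and 1.17 at the other end.

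The clearest case was Rtp4, which encodes a receptor-transporting protein that binds zinc and restrains viruses. Rtp4 measured 37.9 and 34.4 in Flt3L KO cDC1, 35.1 and 45.1 in Flt3 KO cDC1 and 47.5 and 40.9 in WT cDC1, against 712 and 538 in Flt3L KO cDC2, 436 and 418 in Flt3 KO cDC2 and 555 and 496 in WT cDC2. All cDC1 arrays were far below all cDC2 arrays, and the difference in WT was -3.57 ± 0.14 (SE; adjusted p = 5.6e-10), 11.9-fold lower in cDC1. Ifi27l2a, a small interferon-induced protein, differed by -2.06 ± 0.15 (SE; adjusted p = 1.62e-07) in WT. Ifi27l2a had intensities of 358 and 251 in Flt3L KO cDC1, 189 and 178 in Flt3 KO cDC1 and 182 and 197 in WT cDC1, against 1299 and 1045 in Flt3L KO cDC2, 657 and 609 in Flt3 KO cDC2 and 843 and 736 in WT cDC2. Its groups did not overlap in any genotype, and within each cell type both Flt3L KO arrays stood above the others.

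Among the tetratricopeptide genes, which bind foreign RNA ends and lie together on chromosome 19, Ifit1 was lower in WT cDC1 by 4.25-fold, with a difference of -2.09 ± 0.19 (SE; adjusted p = 1.79e-06). Ifit1 measured 36.3 and 24.6 in Flt3L KO cDC1, 26.2 and 23.4 in Flt3 KO cDC1 and 24.1 and 22.2 in WT cDC1, against 172 and 124 in Flt3L KO cDC2, 70.9 and 93.2 in Flt3 KO cDC2 and 108 and 89.2 in WT cDC2. Its values in Flt3 KO and WT cDC1, 22.2 to 26.2, were near the arrays' lower quartiles, so its fold may be understated. Ifit3 had intensities of 73.7 and 75.5 in Flt3L KO cDC1, 71 and 59.6 in Flt3 KO cDC1 and 76.6 and 60.2 in WT cDC1, against 411 and 259.6 in Flt3L KO cDC2, 163 and 212 in Flt3 KO cDC2 and 286 and 189 in WT cDC2. Ifit3 was thus lower on every cDC1 array than on any cDC2 array, with a difference of -1.78 ± 0.22 (SE; adjusted p = 2.89e-05) in WT. Ifit2 averaged 61.5 ± 19.2 in Flt3L KO cDC1, 40.3 ± 1.05 in Flt3 KO cDC1 and 44.1 ± 0.267 in WT cDC1, against 131 ± 33.2 in Flt3L KO cDC2, 91 ± 1.76 in Flt3 KO cDC2 and 112 ± 0.105 in WT cDC2 (SD, n = 2 in each group, as for the means below). Its difference in WT was -1.35 ± 0.18 (SE; adjusted p = 5.23e-05).

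The oligoadenylate synthetase family, whose active members make the messenger that switches on an RNA-degrading enzyme, was split. Of its 5 genes on the list, all from chromosome 5, 4 were lower in WT cDC1 and Oasl1 was higher. Oas2 measured 60.5 and 54.1 in Flt3L KO cDC1, 43.2 and 55.9 in Flt3 KO cDC1 and 60.3 and 48.4 in WT cDC1, against 368 and 244 in Flt3L KO cDC2, 180.3 and 155 in Flt3 KO cDC2 and 297 and 246 in WT cDC2. Oas2 differed by -2.32 ± 0.18 (SE; adjusted p = 4.15e-07) in WT, 5-fold lower in cDC1. Oasl2 had intensities of 109 and 81.9 in Flt3L KO cDC1, 72.8 and 72.3 in Flt3 KO cDC1 and 84.1 and 77.3 in WT cDC1, against 544 and 327 in Flt3L KO cDC2, 280.3 and 279 in Flt3 KO cDC2 and 321 and 306 in WT cDC2. Oasl2, an oligoadenylate synthetase-like protein with ubiquitin-like domains, differed by -1.96 ± 0.18 (SE; adjusted p = 2.03e-06). Oasl1 measured 311 and 263 in Flt3L KO cDC1, 207 and 237 in Flt3 KO cDC1 and 209.8 and 212 in WT cDC1, against 296 and 229 in Flt3L KO cDC2, 104 and 151 in Flt3 KO cDC2 and 145 and 133 in WT cDC2. Oasl1, known in mice as a brake on translation of the transcription factor Irf7, was higher in WT cDC1 by 0.60 ± 0.16 (SE; adjusted p = 0.00934), and in Flt3L KO its cDC1 and cDC2 arrays overlapped. Oas1a averaged 102 ± 23.1 in Flt3L KO cDC1, 88.3 ± 17.5 in Flt3 KO cDC1 and 97 ± 4.2 in WT cDC1, against 286 ± 47.8 in Flt3L KO cDC2, 213 ± 22.2 in Flt3 KO cDC2 and 247 ± 2.99 in WT cDC2, and Oas3 averaged 64 ± 17.8 in Flt3L KO cDC1, 49.2 ± 1.8 in Flt3 KO cDC1 and 60.5 ± 17.7 in WT cDC1, against 135 ± 42.4 in Flt3L KO cDC2, 88.4 ± 2.4 in Flt3 KO cDC2 and 98.3 ± 0.795 in WT cDC2. In WT these differed by -1.35 ± 0.16 (SE; adjusted p = 2.21e-05) for Oas1a and -0.73 ± 0.22 (SE; adjusted p = 0.019) for Oas3. The Oas3 call was lost without replicate 2 of WT cDC1 (adjusted p = 0.153) or without either WT cDC2 array (0.0702 and 0.0792), and that of Oasl1 was lost without replicate 2 of WT cDC2 (0.0676).

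Genes that act on viral RNA or entry were lower in cDC1 as well. Rsad2 had intensities of 123 and 95.7 in Flt3L KO cDC1, 59.8 and 83.9 in Flt3 KO cDC1 and 63.1 and 67.6 in WT cDC1, against 369 and 301 in Flt3L KO cDC2, 209 and 238 in Flt3 KO cDC2 and 253 and 217 in WT cDC2. Rsad2 encodes viperin, which makes a chain-terminating nucleotide, and it differed by -1.84 ± 0.16 (SE; adjusted p = 1.18e-06) in WT with no overlap in any genotype. Cmpk2, its neighbour on chromosome 12, is a mitochondrial nucleotide kinase that averaged 36.2 ± 2.42 in Flt3L KO cDC1, 29 ± 0.132 in Flt3 KO cDC1 and 28.2 ± 0.555 in WT cDC1, against 39.9 ± 7.18 in Flt3L KO cDC2, 35.2 ± 1.91 in Flt3 KO cDC2 and 38.6 ± 5.56 in WT cDC2. It was called only in WT, at -0.45 ± 0.12 (SE; adjusted p = 0.0104), and not without replicate 2 of WT cDC2 (adjusted p = 0.131). Isg20 measured 182 and 132 in Flt3L KO cDC1, 125 and 156 in Flt3 KO cDC1 and 153 and 137 in WT cDC1, against 453 and 369.6 in Flt3L KO cDC2, 362 and 401 in Flt3 KO cDC2 and 460.4 and 421 in WT cDC2. Isg20, an exonuclease of single-stranded RNA, was 3.04-fold lower in WT cDC1, a difference of -1.60 ± 0.15 (SE; adjusted p = 2.44e-06). Ifitm3 had intensities of 1666 and 1429 in Flt3L KO cDC1, 1958 and 1849 in Flt3 KO cDC1 and 1933 and 2043 in WT cDC1, against 5215 and 5074 in Flt3L KO cDC2, 5272 and 4655 in Flt3 KO cDC2 and 4821 and 4955 in WT cDC2. Ifitm3, which hinders fusion of viruses in endosomes, differed by -1.30 ± 0.09 (SE; adjusted p = 1.37e-07).

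Apart from Oasl1, the members higher in WT cDC1 were Mx1, Trim30a and Bst2. Mx1 measured 123 and 115 in Flt3L KO cDC1, 145 and 115 in Flt3 KO cDC1 and 129.6 and 162 in WT cDC1, against 72.2 and 57.9 in Flt3L KO cDC2, 65.9 and 62.1 in Flt3 KO cDC2 and 60.7 and 68 in WT cDC2. Mx1, a dynamin-like GTPase of the nucleus in mice, was 2.25-fold higher in WT cDC1, by 1.17 ± 0.14 (SE; adjusted p = 1.6e-05), and every cDC1 array lay above every cDC2 array. Mx2 had intensities of 37.2 and 38.3 in Flt3L KO cDC1, 35.4 and 34.2 in Flt3 KO cDC1 and 40.3 and 38.2 in WT cDC1, against 45.7 and 40.2 in Flt3L KO cDC2, 32.6 and 31.6 in Flt3 KO cDC2 and 38.2 and 38.7 in WT cDC2. Its neighbour on chromosome 16, Mx2, was not called between the cell types in any genotype, with a WT difference of 0.03 ± 0.08 (SE; adjusted p = 0.808). Trim30a measured 2187 and 1908 in Flt3L KO cDC1, 1817 and 1670 in Flt3 KO cDC1 and 1604 and 1839 in WT cDC1, against 1123 and 1047 in Flt3L KO cDC2, 920.1 and 855 in Flt3 KO cDC2 and 1026 and 1022 in WT cDC2. Trim30a, a tripartite motif protein known in mice to restrain Toll-like receptor signalling, was higher in WT cDC1 by 0.75 ± 0.10 (SE; adjusted p = 3.49e-05), again without overlap of any arrays. Bst2 had intensities of 1024 and 842 in Flt3L KO cDC1, 809 and 877 in Flt3 KO cDC1 and 872 and 853 in WT cDC1, against 779 and 659 in Flt3L KO cDC2, 620.5 and 635 in Flt3 KO cDC2 and 681 and 585 in WT cDC2. Bst2 encodes tetherin, which holds budding virus at the cell surface, and it was higher by 0.45 ± 0.11 (SE; adjusted p = 0.00616) in WT but not past the threshold without replicate 2 of WT cDC2 (adjusted p = 0.0783).

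Sensors, kinases and a transcription factor were also on the list. Ifih1, the cytosolic RNA sensor MDA5, averaged 279.6 ± 16.7 in Flt3L KO cDC1, 328 ± 14.6 in Flt3 KO cDC1 and 325 ± 3.25 in WT cDC1, against 539 ± 63.1 in Flt3L KO cDC2, 492 ± 14.7 in Flt3 KO cDC2 and 552 ± 42.7 in WT cDC2. Its WT difference was -0.76 ± 0.09 (SE; adjusted p = 2.69e-05). Dhx58 measured 264 and 236 in Flt3L KO cDC1, 209.9 and 215 in Flt3 KO cDC1 and 189 and 197 in WT cDC1, against 325 and 252 in Flt3L KO cDC2, 249 and 252 in Flt3 KO cDC2 and 260.4 and 260.1 in WT cDC2. Dhx58 encodes LGP2, a relative of MDA5 that tunes it, and differed by -0.43 ± 0.11 (SE; adjusted p = 0.00568) in WT. Stat2 had intensities of 427 and 326 in Flt3L KO cDC1, 341 and 337 in Flt3 KO cDC1 and 283 and 310.5 in WT cDC1, against 444 and 389 in Flt3L KO cDC2, 444 and 375 in Flt3 KO cDC2 and 443 and 410.2 in WT cDC2. Stat2, the transcription factor of the interferon complex, differed by -0.52 ± 0.12 (SE; adjusted p = 0.00466), in WT alone among the genotypes as far as calls go. Eif2ak2 measured 66.2 and 62.6 in Flt3L KO cDC1, 61.5 and 69.6 in Flt3 KO cDC1 and 53.3 and 53 in WT cDC1, against 61.8 and 53 in Flt3L KO cDC2, 51.9 and 52.7 in Flt3 KO cDC2 and 60.5 and 57.8 in WT cDC2. Eif2ak2, the kinase PKR that halts translation on double-stranded RNA, was not called in WT (-0.15 ± 0.09, SE; adjusted p = 0.197) and was called higher in Flt3 KO cDC1 (0.32 ± 0.09, SE; adjusted p = 0.013), where it was lost on leaving out 3 of the 4 arrays in turn. Zbp1, a sensor of Z-form nucleic acid, averaged 260.0 ± 30.4 in Flt3L KO cDC1, 183 ± 12.3 in Flt3 KO cDC1 and 182 ± 3.58 in WT cDC1, against 285 ± 89.7 in Flt3L KO cDC2, 223 ± 2 in Flt3 KO cDC2 and 225 ± 8.37 in WT cDC2. It was not called in any genotype, with a WT difference of -0.31 ± 0.16 (SE; adjusted p = 0.141).

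Modifiers of proteins made up the next group. Parp14 and Parp9 encode ADP-ribosyltransferase family members, and Dtx3l encodes the ubiquitin ligase that partners Parp9; all lie on chromosome 16. Parp14 averaged 139.7 ± 19.7 in Flt3L KO cDC1, 131 ± 4.87 in Flt3 KO cDC1 and 127 ± 13.3 in WT cDC1, against 261 ± 35.2 in Flt3L KO cDC2, 221 ± 20.2 in Flt3 KO cDC2 and 258 ± 6.35 in WT cDC2. Parp9 averaged 70.5 ± 9.13 in Flt3L KO cDC1, 63.9 ± 0.701 in Flt3 KO cDC1 and 62.3 ± 7.36 in WT cDC1, against 93.7 ± 9.9 in Flt3L KO cDC2, 87.1 ± 1.85 in Flt3 KO cDC2 and 98 ± 1.38 in WT cDC2. Dtx3l averaged 233 ± 0.721 in Flt3L KO cDC1, 219.8 ± 4.65 in Flt3 KO cDC1 and 206 ± 17.9 in WT cDC1, against 243 ± 49.1 in Flt3L KO cDC2, 199 ± 16.3 in Flt3 KO cDC2 and 221 ± 4.68 in WT cDC2. In WT the differences were -1.03 ± 0.12 (SE; adjusted p = 1.6e-05) for Parp14, -0.66 ± 0.11 (SE; adjusted p = 0.000293) for Parp9 and -0.10 ± 0.12 (SE; adjusted p = 0.514) for Dtx3l, so Dtx3l did not follow its partner past the threshold. Herc6 had intensities of 191 and 169 in Flt3L KO cDC1, 196 and 209.7 in Flt3 KO cDC1 and 141 and 169 in WT cDC1, against 322 and 253 in Flt3L KO cDC2, 282 and 261 in Flt3 KO cDC2 and 299 and 288 in WT cDC2. Herc6, in mice the main ligase for Isg15, was lower in WT cDC1, at -0.93 ± 0.12 (SE; adjusted p = 3.83e-05). Usp18, which removes Isg15 and blocks the receptor as feedback, averaged 183 ± 38.8 in Flt3L KO cDC1, 154 ± 3.43 in Flt3 KO cDC1 and 173 ± 23.3 in WT cDC1, against 208 ± 14.1 in Flt3L KO cDC2, 194 ± 0.728 in Flt3 KO cDC2 and 220.2 ± 26.2 in WT cDC2. Its WT difference was -0.35 ± 0.14 (SE; adjusted p = 0.0577), and it was called in none of the genotypes.

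Guanylate-binding proteins are GTPases that attack vacuoles of pathogens and respond also to interferon gamma. Both listed ones with a value, Gbp7 and Gbp3, were lower in cDC1. Gbp2 had no value, and Gbp5, outside the list, averaged higher in cDC1 than in cDC2 in each genotype, as given below. Gbp7 measured 38.8 and 49.5 in Flt3L KO cDC1, 44.8 and 46.6 in Flt3 KO cDC1 and 42.5 and 50.4 in WT cDC1, against 187 and 116 in Flt3L KO cDC2, 104 and 89.2 in Flt3 KO cDC2 and 89.6 and 94.3 in WT cDC2. Gbp7 differed by -0.99 ± 0.18 (SE; adjusted p = 0.000731) in WT. Gbp3 averaged 63.8 ± 12.7 in Flt3L KO cDC1, 55.5 ± 4.15 in Flt3 KO cDC1 and 58.7 ± 8.41 in WT cDC1, against 125 ± 19.8 in Flt3L KO cDC2, 102 ± 2.38 in Flt3 KO cDC2 and 91.8 ± 2.35 in WT cDC2, a WT difference of -0.65 ± 0.14 (SE; adjusted p = 0.00247). The remaining members have looser roles. Xaf1 had intensities of 50.3 and 54.7 in Flt3L KO cDC1, 40.6 and 49.4 in Flt3 KO cDC1 and 35.6 and 43.4 in WT cDC1, against 110.4 and 91.9 in Flt3L KO cDC2, 92.9 and 92.9 in Flt3 KO cDC2 and 127 and 112 in WT cDC2. Xaf1, a binder of an apoptosis inhibitor, was lower in WT cDC1, at -1.60 ± 0.12 (SE; adjusted p = 3.7e-07). Samd9l measured 589.8 and 545 in Flt3L KO cDC1, 695 and 649.9 in Flt3 KO cDC1 and 652 and 734 in WT cDC1, against 649 and 521 in Flt3L KO cDC2, 605 and 506 in Flt3 KO cDC2 and 659.5 and 660.4 in WT cDC2. Lgals3bp had intensities of 575 and 466 in Flt3L KO cDC1, 389 and 427 in Flt3 KO cDC1 and 443 and 439 in WT cDC1, against 678 and 521 in Flt3L KO cDC2, 424 and 407 in Flt3 KO cDC2 and 391 and 345 in WT cDC2. Samd9l, a restriction factor, and Lgals3bp, a secreted galectin ligand, were not called between the cell types in any genotype, nor was Ifi35, which averaged 589 ± 68.3 in Flt3L KO cDC1, 571 ± 16.2 in Flt3 KO cDC1 and 575 ± 46.3 in WT cDC1, against 565 ± 17.2 in Flt3L KO cDC2, 513 ± 4.3 in Flt3 KO cDC2 and 534 ± 2.62 in WT cDC2. Whether the probe sets of Oas1a, Ifit3, Gbp3, Gbp7 and others with close relatives also read those relatives was not tested.

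**Figure D3:**
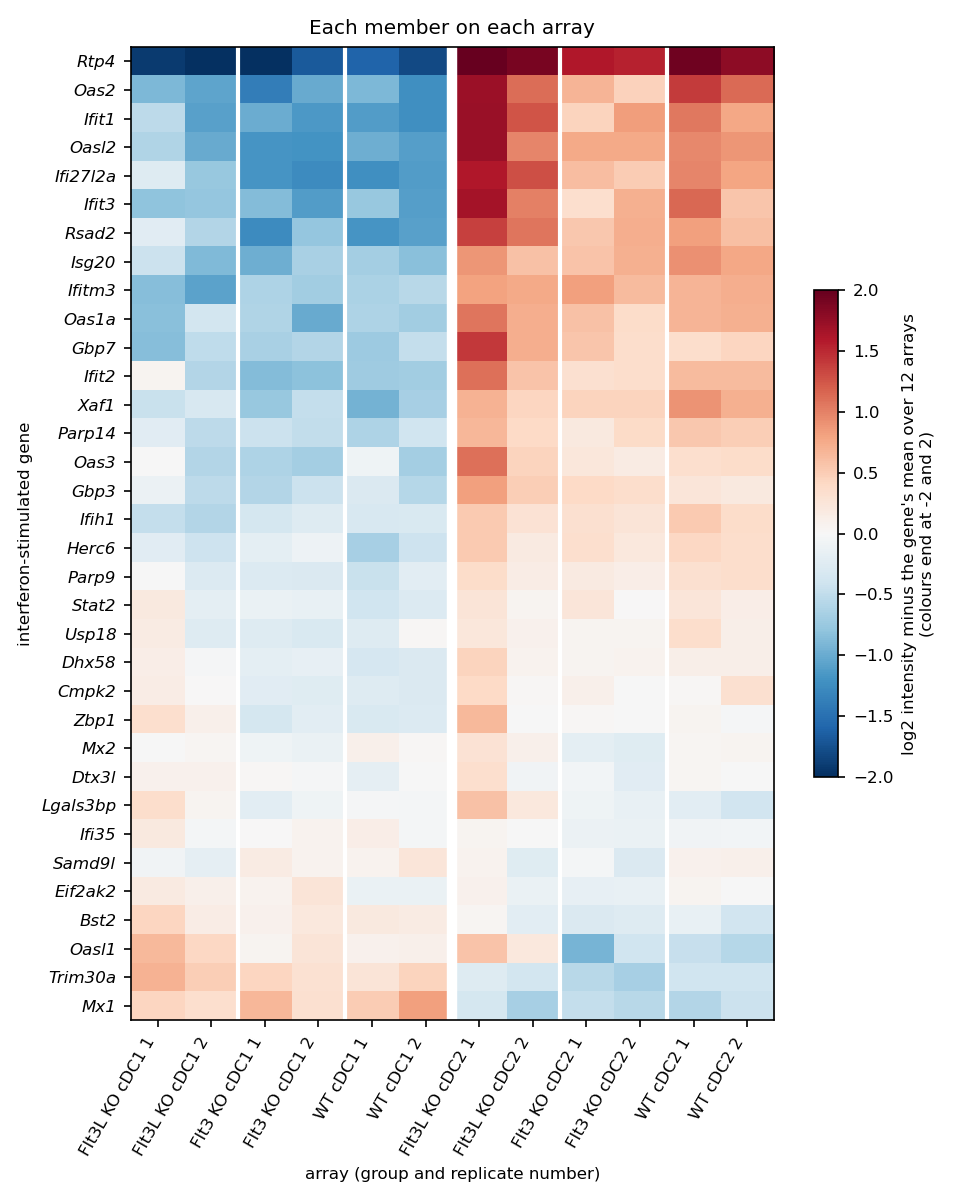
Log2 intensity of each of the 34 interferon-stimulated genes on each of the 12 arrays, minus the gene's mean over the arrays (colour, ending at -2 and 2). Rows are ordered by the cell-type difference and columns are grouped as Flt3L KO, Flt3 KO and WT for cDC1 and then for cDC2. The upper rows, such as Rtp4 and Oas2, are low on all 6 cDC1 arrays, and the bottom rows, Mx1 and Trim30a, are high there.

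The cell-type pattern was present without Flt3 and without Flt3 ligand. In Flt3L KO, 19 of 34 members were lower in cDC1 and 3 higher (15.9% and 18.9% of all genes tested), with a median of -0.79. With replicate 1 of Flt3L KO left out of both cell types, 19 were lower and 2 higher, with a median of -0.67. In Flt3 KO, 19 were lower and 5 higher (16.4% and 19.1%), with a median of -0.51. The same 19 genes were lower in all 3 genotypes (55.9% of the members, against 11.5% of all genes tested): Ifit1, Ifit2, Ifit3, Isg20, Oas1a, Oas2, Oas3, Oasl2, Rsad2, Rtp4, Ifi27l2a, Ifih1, Parp14, Parp9, Xaf1, Herc6, Ifitm3, Gbp3 and Gbp7. Mx1, Bst2 and Trim30a were higher in all 3 (8.82%, against 13.3%). Mx2, Ifi35, Usp18, Zbp1, Dtx3l, Samd9l and Lgals3bp were called in none, and 79.4% of the members were called in at least 1 genotype, against 50.5% of all genes tested. No member was called in opposite directions, which says little, since only 0.147% of all genes tested were. Of the calls, 22 of 26 in WT, 20 of 24 in Flt3 KO and 20 of 22 in Flt3L KO remained under every alternative run, arrays left out in turn included. Averaged over the genotypes, 24 members were lower in cDC1 and 4 higher (23.5% and 28.1% of all genes tested), with a median of -0.72. Without replicate 1 of Flt3L KO in both cell types these counts were 24 and 4, with a median of -0.69.

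Loss of the receptor left the list without a called change. In Flt3 KO against WT, 0 of 34 members were called by limma in cDC1 and 0 in cDC2, where 0.0803% and 0.107% of all genes tested were called. At an unadjusted p under 0.05, 2 members were higher and 0 lower in cDC1, and 0 higher and 5 lower in cDC2. These shares can be set against 12.5% and 7.28% of all genes tested. In cDC2, 30 of 34 differences lay below 0, with a median of -0.16, and both Flt3 KO arrays lay below both WT arrays for 21 of 34 members, against 16.9% of all genes tested. Counts of members above or below 0, here and below, have no share over all genes beside them. The members were read on the same arrays, so these counts describe the list and are not tests. In cDC1 the median was -0.03. Over both cell types 0 of 34 were called (0.254% of all genes tested), with a median of -0.08.

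The smallest p-values in Flt3 KO cDC2 belonged to Oas2, Mx2, Xaf1 and Samd9l. Oas2 was at 180.3 and 155 in Flt3 KO cDC2, against 297 and 246 in WT cDC2, a difference of -0.69 ± 0.18 (SE; adjusted p = 0.277). Mx2 was at 32.6 and 31.6 in Flt3 KO cDC2, against 38.2 and 38.7 in WT cDC2, a difference of -0.26 ± 0.08 (SE; adjusted p = 0.409). For both genes the Flt3 KO arrays lay below the WT arrays. Xaf1 and Samd9l differed by -0.36 ± 0.12 and -0.25 ± 0.12 (SE; adjusted p = 0.504 and 0.685). In Flt3 KO cDC1 the smallest p-values were those of Eif2ak2 at 0.30 ± 0.09, Herc6 at 0.39 ± 0.12, Mx2 at -0.17 ± 0.08 and Stat2 at 0.19 ± 0.12 (SE; adjusted p = 0.265, 0.265, 0.401 and 0.522). Over both cell types Mx2, Oas2, Rtp4 and Samd9l came first, at -0.22 ± 0.06, -0.41 ± 0.13, -0.22 ± 0.10 and -0.15 ± 0.08 (SE; adjusted p = 0.193, 0.307, 0.483 and 0.567). None of these passed the threshold. Without replicate 2 of WT cDC1, 1 of 34 members was called higher in Flt3 KO cDC1, where 7.57% of all genes tested were then called.

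**Figure D4:**
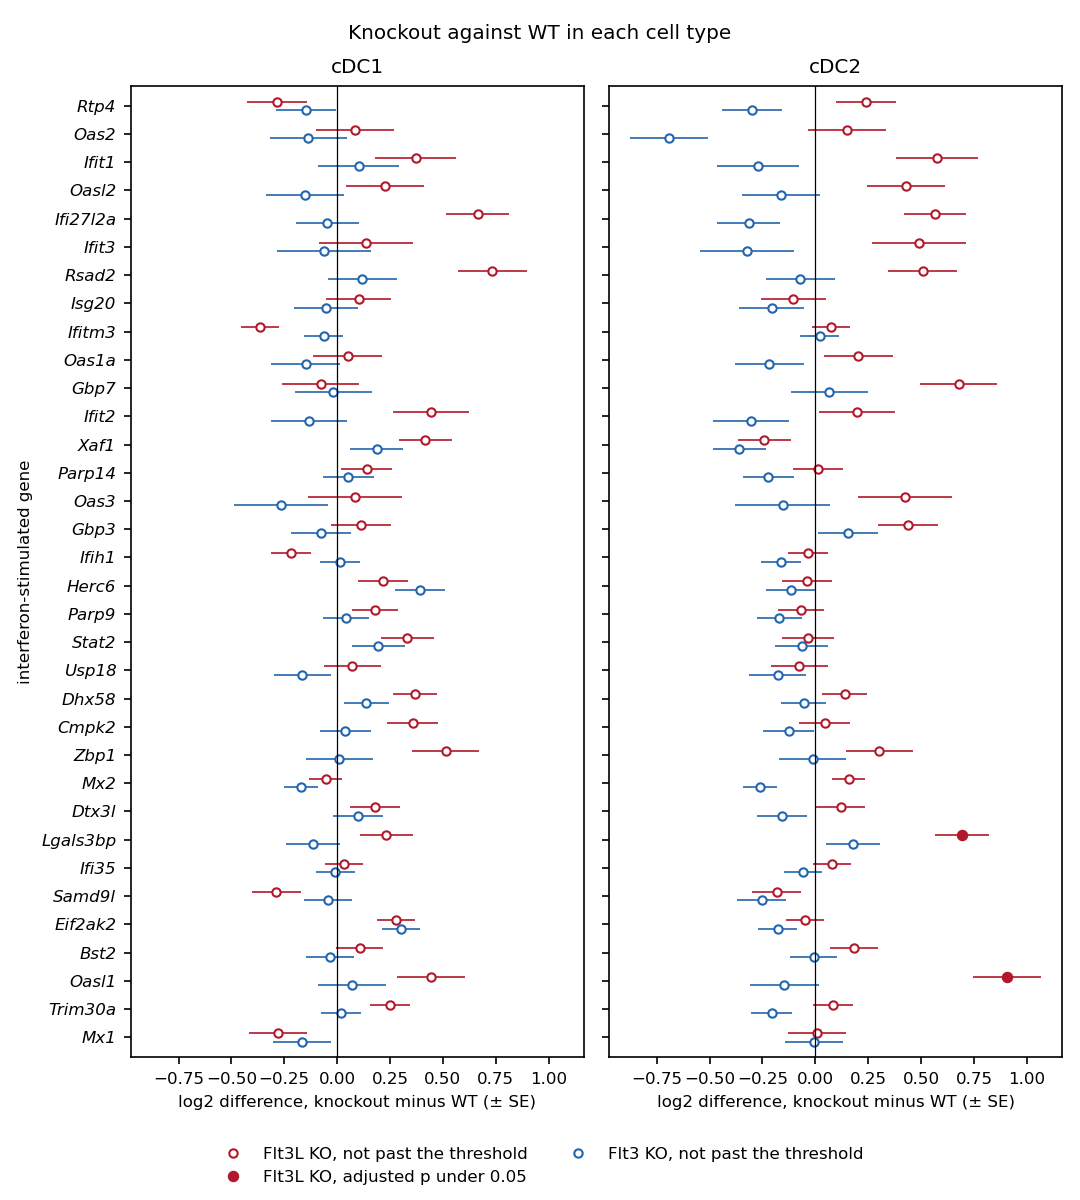
Log2 difference from WT (point, ± SE from limma) of the 34 interferon-stimulated genes in Flt3L KO and Flt3 KO, for cDC1 (left) and cDC2 (right), with rows ordered by the cell-type difference. Filled points passed an adjusted p of 0.05 and open points did not. In cDC2, 25 of 34 Flt3L KO points lie above 0 and 30 of 34 Flt3 KO points below it, and the filled points are Oasl1 at 0.91 and Lgals3bp at 0.69, both Flt3L KO.

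In Flt3L KO against WT a few members were higher and none was called lower. In cDC2, 2 of 34 were higher, Oasl1 and Lgals3bp, where 1.04% of all genes tested were called higher. Oasl1 was at 296 and 229 in Flt3L KO cDC2, against 145 and 133 in WT cDC2, a difference of 0.91 ± 0.16 (SE; adjusted p = 0.0141), 1.88-fold higher. Lgals3bp was at 678 and 521 in Flt3L KO cDC2, against 391 and 345 in WT cDC2, a difference of 0.69 ± 0.13 (SE; adjusted p = 0.0158), 1.62-fold higher. Both Flt3L KO arrays lay above both WT arrays for either gene. In cDC1, 0 of 34 were called by limma (1.19% of all genes tested), with 11 higher and 3 lower at an unadjusted p under 0.05 (17.1% of all genes tested, either way). Without replicate 1 of Flt3L KO cDC1 these were 4 and 3, against 10.6% of all genes tested. In cDC1 Rsad2 was at 123 and 95.7 in Flt3L KO cDC1, against 63.1 and 67.6 in WT cDC1, a difference of 0.73 ± 0.16 (SE; adjusted p = 0.0525), and Ifi27l2a at 358 and 251 in Flt3L KO cDC1, against 182 and 197 in WT cDC1, a difference of 0.66 ± 0.15 (SE; adjusted p = 0.0525). Ifitm3 differed by -0.36 ± 0.09 and Dhx58 by 0.37 ± 0.11 (SE; adjusted p = 0.0771 and 0.106). These 4 had the smallest p-values there and did not pass the threshold.

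Averaged over the cell types, 4 of 34 members were higher in Flt3L KO (1.67% of all genes tested) and 0 lower. They were Oasl1 at 0.68 ± 0.11, Ifi27l2a at 0.61 ± 0.10, Rsad2 at 0.62 ± 0.12 and Lgals3bp at 0.46 ± 0.09 (SE; adjusted p = 0.00991, 0.00997, 0.0139 and 0.0171). The median of the 34 was 0.16 in cDC1, 0.14 in cDC2 and 0.15 in the average, with 27, 25 and 27 of 34 above 0. The average treats cDC1 and cDC2 arrays as independent, so its SE may be too small if arrays of equal replicate number share animals.

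These calls were lost without replicate 1 of Flt3L KO, and those in cDC2 also without single WT arrays. Without that replicate in cDC2, 0 members were called in cDC2, 17 of 34 lay above 0, and the median was 0.00. Oasl1 then stood at 0.72 (adjusted p = 0.131) and Lgals3bp at 0.50 (adjusted p = 0.142). Without replicate 2 in its place the median was 0.31. Without either WT cDC2 array 0 were called in cDC2. The average had 4 called without either WT cDC1 array or without replicate 1 of WT cDC2, and 2 without replicate 2 of WT cDC2. With replicate 1 left out of both cell types, a choice made after seeing the data, 0 members were called in the average, 21 of 34 lay above 0 and the median was 0.03. Oasl1 was then at 0.52, Ifi27l2a at 0.41, Rsad2 at 0.46 and Lgals3bp at 0.29 (adjusted p = 0.146, 0.0722, 0.19 and 0.167). In cDC1, leaving out replicate 1 lowered the median to 0.09 with 21 of 34 above 0.

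Summed markers of red pulp macrophages, monocytes and plasmacytoid dendritic cells were above WT in cDC2 of both knockouts, not in Flt3L KO alone. In Flt3L KO cDC2 the sum of T cell markers was also above WT. Those of B cells, NK cells and neutrophils overlapped WT. The 7 red pulp macrophage markers summed to 2712 and 2309 in Flt3L KO cDC2, 1774 and 1796 in Flt3 KO cDC2 and 1579 and 1548 in WT cDC2. Replicate 1 of Flt3L KO had the highest sum. In Flt3L KO cDC2, C1qa, C1qb and C1qc were higher in replicate 1 than in replicate 2, while Vcam1, Adgre1, Spic and Cd5l were lower. Of the 6 red pulp macrophage markers that were tested, 4 were higher than in WT and 1 lower. The complement gene C1qa was higher by 2.20 ± 0.15 (SE; adjusted p = 1.7e-05) and the adhesion molecule Vcam1 by 1.19 ± 0.08, while the macrophage marker Adgre1 was lower, at -0.67 ± 0.10 (SE). Without replicate 1 of Flt3L KO cDC2, C1qa stood at 1.97, Vcam1 at 1.22 and Adgre1 at -0.65 (adjusted p = 0.000244, 0.000244 and 0.0561). Cd5l, a defining gene of red pulp macrophages, averaged 26.05 in Flt3L KO cDC2, 20.55 in Flt3 KO cDC2 and 19.64 in WT cDC2, near the arrays' lower quartiles. The 5 monocyte markers summed to 2751 and 2804 in Flt3L KO cDC2, 2891 and 2740 in Flt3 KO cDC2 and 2214 and 2189 in WT cDC2. The 6 plasmacytoid dendritic cell markers with a value, of 7 listed, summed to 390.6 and 439.5, 416.4 and 454.1, and 366 and 358.4 in those groups. Their part in the result was not tested.

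**Figure D5:**
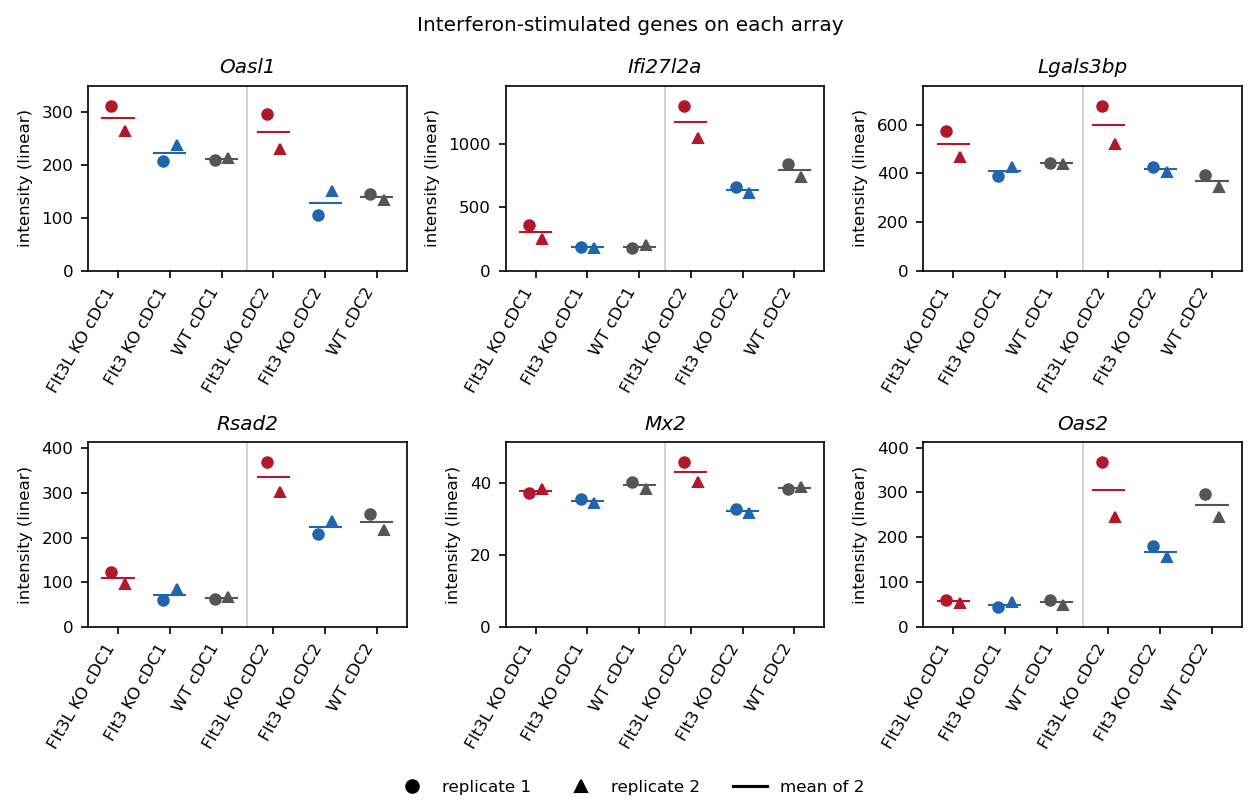
Intensity (linear) of Oasl1, Ifi27l2a, Lgals3bp, Rsad2, Mx2 and Oas2 on each array, by group; circles are replicate 1, triangles replicate 2 and lines the mean of 2. In Flt3L KO cDC2 the circle lies above the triangle for each of these genes, for example at 296 and 229 for Oasl1.

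The knockouts also differed from each other, and the comparison shares its Flt3L KO and Flt3 KO arrays with those above. In cDC2, 34 of 34 members were above 0 in Flt3L KO minus Flt3 KO, with a median of 0.28, and 3 were called higher (0.461% of all genes tested). The count above 0 is not a test, since replicate 1 of Flt3L KO cDC2 alone lay above replicate 2 for 34 of 34 members. Both Flt3L KO arrays lay above both Flt3 KO arrays for 21 of 34 members, against 22.1% of all genes tested. Oasl1 was at 296 and 229 in Flt3L KO cDC2, against 104 and 151 in Flt3 KO cDC2, a difference of 1.05 ± 0.16 (SE; adjusted p = 0.0111). Ifi27l2a was at 1299 and 1045 in Flt3L KO cDC2, against 657 and 609 in Flt3 KO cDC2, a difference of 0.88 ± 0.15 (SE; adjusted p = 0.0178). Mx2 was at 45.7 and 40.2 in Flt3L KO cDC2, against 32.6 and 31.6 in Flt3 KO cDC2, a difference of 0.42 ± 0.08 (SE; adjusted p = 0.0324). None of the 3 overlapped between these groups. In cDC1 only Ifi27l2a was called of the 34, at 0.71 ± 0.15 (SE; adjusted p = 0.0483; 0.221% of all genes tested were higher), and the median was 0.19. Without replicate 1 of Flt3L KO, 0 were called in either cell type, 25 of 34 lay above 0 in cDC2 with a median of 0.10, and 20 of 34 in cDC1 with a median of 0.07. In cDC2 calls were also lost without single Flt3 KO arrays, while more members passed without replicate 2 of Flt3L KO. The share over all genes in those runs is not given, so the rise is not read as a result about the members. In cDC1 0 were called without either Flt3 KO array.

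Whether a knockout acted differently in cDC2 and cDC1 was tested as a difference of the effects, which is also the test of whether the cell-type gap changed. For Flt3L KO, 0 of 34 members were called (0.495% of all genes tested), with a median of 0.06. With replicate 1 of Flt3L KO left out of both cell types 0 were called and the median was 0.00. The smallest p-values were those of Xaf1 at -0.66 ± 0.18, Ifitm3 at 0.44 ± 0.13, Gbp7 at 0.76 ± 0.26 and Rtp4 at 0.52 ± 0.20 (SE; adjusted p = 0.132, 0.169, 0.219 and 0.258). For Gbp7 the effects behind this were 0.68 ± 0.18 in cDC2 and -0.08 ± 0.18 in cDC1. For Flt3 KO, 0 of 34 were called and 0% of all genes tested, with a median of -0.17, led by Eif2ak2 at -0.48 ± 0.13, Xaf1 at -0.55 ± 0.18, Herc6 at -0.51 ± 0.17 and Oas2 at -0.56 ± 0.26 (SE; adjusted p = 0.458, 0.472, 0.487 and 0.562). At an unadjusted p under 0.05, 4 higher and 2 lower members passed for Flt3L KO and 0 higher and 3 lower for Flt3 KO (14.8% and 8.97% of all genes tested). The median SE of such a difference over all genes was 0.13, and values as large as 0.76 in size were not called here.

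Counts of called genes around these targets are read against the 18.4% of all genes tested that were lower and the 21% that were higher in WT cDC1. Of 6 interferon receptor genes, 4 were lower in WT cDC1 and 0 higher. Ifnar2 averaged 553 ± 39 in Flt3L KO cDC1, 536 ± 9.98 in Flt3 KO cDC1 and 516 ± 105 in WT cDC1, against 913 ± 25.6 in Flt3L KO cDC2, 869.5 ± 33.7 in Flt3 KO cDC2 and 861 ± 40 in WT cDC2, and Ifnar1 averaged 591 ± 15.9 in Flt3L KO cDC1, 561 ± 48.9 in Flt3 KO cDC1 and 511 ± 24.6 in WT cDC1, against 629 ± 1.83 in Flt3L KO cDC2, 697 ± 46.6 in Flt3 KO cDC2 and 714 ± 15.5 in WT cDC2. In WT their differences were -0.75 ± 0.11 (SE; adjusted p = 0.000157) for Ifnar2 and -0.48 ± 0.08 (SE; adjusted p = 0.000492) for Ifnar1. Ifnar2 was lower in cDC1 in the knockouts too, at -0.72 ± 0.11 in Flt3L KO (-0.68, adjusted p = 0.0161, without replicate 1 in both cell types) and -0.70 ± 0.11 in Flt3 KO, while Ifnar1 was not called in Flt3L KO (-0.09 ± 0.08, SE; adjusted p = 0.474); the Flt3L KO effect on Ifnar1 did not differ between cDC2 and cDC1 past the threshold (-0.39 ± 0.12, SE; adjusted p = 0.177). Il10rb and Ifngr2 were lower as well, at -0.62 ± 0.08 and -0.56 ± 0.08 (SE).

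Of 9 signalling genes tested, 2 were higher in WT cDC1 and 3 lower, so few genes that these counts say little beside the shares over all genes. The receptor kinase Tyk2 was higher, at 0.79 ± 0.08 (SE; adjusted p = 6.62e-06), and its partner Jak1 was lower, at -0.24 ± 0.07 (SE; adjusted p = 0.0155). Irf9, the DNA-binding part of the interferon complex, was lower, at -0.39 ± 0.11 (SE; adjusted p = 0.0114), and the transcription factor Irf1 was higher by 0.43 ± 0.12. Irf7, which amplifies interferon production and is itself interferon-stimulated, was not called (0.01 ± 0.17, SE; adjusted p = 0.958). Irf7 measured 940.4 and 636 in Flt3L KO cDC1, 501 and 572 in Flt3 KO cDC1 and 608 and 594 in WT cDC1, against 961 and 663 in Flt3L KO cDC2, 505 and 524 in Flt3 KO cDC2 and 618 and 572 in WT cDC2. In Flt3L KO replicate 1 of Irf7 lay above replicate 2 in both cell types, as for the listed targets, and its difference from WT averaged 0.40 ± 0.12 (SE; adjusted p = 0.115), and 0.12 (adjusted p = 0.651) without replicate 1. None of the 9 was called in a knockout against WT.

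Of 7 inhibitors of the pathway tested, Usp18 from the list among them, 4 were lower in WT cDC1, led by the phosphatase Ptpn6 at -1.04 ± 0.09 (SE; adjusted p = 1.52e-06), while the suppressor Socs1 stood at -0.01 ± 0.10 (SE; adjusted p = 0.963). Socs3, a suppressor of cytokine receptors, was the only one of them called in Flt3L KO cDC2, higher by 0.48 ± 0.10 (SE; adjusted p = 0.0242), and it was not called without replicate 1 of Flt3L KO (0.39, adjusted p = 0.203). Of 16 nucleic acid sensors and adaptors tested, 2 were higher and 8 lower in WT cDC1. Ddx58, the RNA sensor RIG-I and itself interferon-stimulated, was 11.4-fold lower, averaging 46.6 ± 5.01 in Flt3L KO cDC1, 39.3 ± 1.22 in Flt3 KO cDC1 and 47.2 ± 16.5 in WT cDC1, against 491 ± 97.9 in Flt3L KO cDC2, 448 ± 28.7 in Flt3 KO cDC2 and 523 ± 42.5 in WT cDC2. The endosomal receptor Tlr3 was higher, by 4.52 ± 0.14 (SE). Tlr7 measured 14.01 and 11.8 in WT cDC1, against 471.5 and 461.7 in WT cDC2, and Tlr8 measured 17 and 16.3 in WT cDC1, against 62.4 and 66.4 in WT cDC2. The cDC1 values of both lay below the lower quartile of every array, so no fold is given. In Flt3L KO, Tlr3 was lower in cDC1 (-0.69 ± 0.14, SE; adjusted p = 0.0455) and Tlr8 higher in cDC2 (0.59 ± 0.13, SE; adjusted p = 0.039). Neither was called without replicate 1 of Flt3L KO in that cell type, at -0.70 for Tlr3 and 0.50 for Tlr8. The Tlr3 difference was then no smaller, and 1 array was left in the group. Of 18 type I interferon genes listed, 14 had a value and 8 were bright enough to be tested. Ifna2 was called lower in WT cDC1, at -0.31 ± 0.11 (SE; adjusted p = 0.0388), while the other tested ones lay at 0.135 to 0.281 and were not called. Between the cell types Ifna2 stood at 0.10 ± 0.11 in Flt3 KO and 0.21 ± 0.11 in Flt3L KO (SE), not called. Of these 8 genes, 0 were called in either knockout against WT.

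A wider set of 58 tested interferon-stimulated genes outside the list differed in both directions between the cell types. In WT cDC1, 17 were higher and 20 lower (21% and 18.4% of all genes tested), with a median of -0.12. Ifi205, a DNA-binding protein of the interferon-inducible p200 family, was higher by 5.19 ± 0.20 (SE), and the chemokine Cxcl9 by 3.31 ± 0.14. Ms4a4c was lower, at -3.73 ± 0.14, as was the entry inhibitor Ifitm1, at -1.75 ± 0.09 (SE). In Flt3L KO cDC1, 2 were higher than in WT, the GTPase Gbp5 at 0.69 ± 0.14 and the nuclear body gene Pml at 0.58 ± 0.12 (SE; adjusted p = 0.0359 and 0.0396, where 1.19% of all genes tested were called), and in Flt3L KO cDC2 0 were called. Neither was called without replicate 1 of Flt3L KO cDC1, at 0.78 for Gbp5 and 0.51 for Pml. The Gbp5 difference was then no smaller, and 1 array was left in the group. Gbp5 averaged 196 ± 16.3 in Flt3L KO cDC1, 164 ± 4.38 in Flt3 KO cDC1 and 121 ± 2.91 in WT cDC1, against 121 ± 30.9 in Flt3L KO cDC2, 86.9 ± 6.72 in Flt3 KO cDC2 and 85.8 ± 4.88 in WT cDC2. Over both cell types 6 of the 58 were higher in Flt3L KO and 1 lower (1.67% and 1.33% of all genes tested). Without replicate 1 in both cell types 1 was higher, Gbp5 at 0.49 (adjusted p = 0.029), and 0 were lower. In this set too, replicate 1 of Flt3L KO lay above replicate 2, for 51 of 58 genes in cDC2 (median 0.17) and 40 of 58 in cDC1 (median 0.08).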

How the data were processed

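RNA from the 12 samples was labelled with the Ambion WT Expression and GeneChip WT Terminal Labeling kits, per the labels' protocols. The deposited values are linear intensities, 1 per probe set and array, and their summarisation and normalization were not given in the sources used here. Detection calls were not used. Of 30177 probe sets, 21789 had 1 gene symbol in the platform's annotation and were kept, while 1621 had several and 6767 were not in that table. The brightest probe set stood for each of 19938 genes, and the dimmest share of 0.25, ranked on the mean of log2 values, was dropped (Flt3 and Flt3l kept), leaving 14953 genes at a mean log2 of at least 4.78.

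Groups came from the sample titles. A model of log2 intensity with 1 mean for each group was fitted over all 12 arrays with limma 3.58.1 (R 4.3.3, statmod 1.5.0; 6 residual degrees of freedom), and 14 contrasts were tested, each adjusted by the Benjamini-Hochberg method over all genes tested. The number of arrays limits the precision, with a median SE of 0.0937 for a pair of groups and 0.0663 for an average over cell types. The method was also run on simulated data with 200 genes changed, and no result given here rests on that run. The members and lists were chosen with earlier results of these data known.

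Values on every array are given for the 8 largest called differences in each direction between WT cDC1 and cDC2, every member called in a knockout comparison, and otherwise the 4 of smallest p. Other members are given as group means, and non-members by a fixed set of pathway genes plus up to 4 of smallest p in a list with a call. Promoters are RefSeq windows on GRCm38.p6. Alternatives were quantile normalization, no filter or a share of 0.5, averaging the probe sets of a gene, a trended and robust prior for the variance, an offset of 50 units before log2, the replicate number as a block, only the arrays compared, and each array left out in turn. Leaving out replicate 1 of Flt3L KO in both cell types, and a crossed block, were added after seeing the data. No 2 arrays held identical values. Equal replicate numbers are not stated to share animals. Their deviations correlated across genes at 0.15, 0.09 and 0.16 between cDC1 and cDC2 of Flt3L KO, Flt3 KO and WT. The range was -0.17 to 0.17 between genotypes within a cell type, and -0.20 to 0.04 where both differed. The main model took no numbers as pairs, although cDC1 and cDC2 of a genotype correlated positively each time. If they share animals, the SE of an average over cell types may be too small.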

Additional observations from a re-analysis of the deposited data

How the results depend on the processing

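Among counts of called members, 355 values under an alternative kept their side of the threshold or stayed within 1.5 times the reported count, 24 were larger and 17 smaller, and none reversed. The counts lower in cDC1 kept within 1.5 times under every alternative: 21 to 22 in WT, 17 to 19 in Flt3 KO and 18 to 23 in Flt3L KO with each array left out. The counts higher in cDC1 were 2 to 4 in WT (2 without replicate 2 of WT cDC2) and 3 to 5 in Flt3 KO (3 without replicate 2 of Flt3 KO cDC1). For Flt3L KO against WT in cDC1, where 0 were reported, 1 was higher with quantile normalization and 2 were higher and 1 lower with a share of 0.5 left out, with a trended and robust prior, or with an offset of 50. Leaving out single arrays gave 0 to 2 there (2 without replicate 2 of WT cDC1), 0 to 5 in cDC2 and 1 to 8 in the average, against the 2 and 4 reported. Without replicate 1 of Flt3L KO in both cell types the average had 0. For Flt3L KO against Flt3 KO in cDC1, 0 were higher with no filter or with only the arrays compared, 0 to 2 with an array left out, and 1 was lower with the trended prior. In cDC2 the count of 3 became 6 with the trended prior, 7 with the offset, 5 with only the arrays compared, and 0 to 11 with an array left out. For Flt3 KO against WT in cDC1 leaving out single arrays gave 0 to 1. For the difference of the Flt3L KO effects, 1 was higher with the trended prior, and leaving out single arrays gave 0 to 1 higher (1 without replicate 2 of Flt3L KO cDC2) and 0 to 1 lower (1 without replicate 2 of WT cDC1). With the replicate number as a block, 1 member was higher in Flt3L KO against WT in cDC1 and 5 in Flt3L KO against Flt3 KO in cDC2, and with crossed numbers 2 were higher in the first; the block moved no other count by over 1.5 times. The cause of these changes was not tested. For most of these runs the share over all genes is not given, so a higher count is not read as a result about the members. With 2 arrays a group, small changes of dim genes such as Ifit1 in cDC1 were not detectable, and an array alone in its group was assumed to vary like the others.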
